A study of Homo sapiens with 6 samples.

Results

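The 10 histone mRNA processing factors described here are SLBP, NPAT, LSM10, LSM11, ZNF473, CASP8AP2, ERI1, UPF1, CPSF3 and SYMPK. Each was taken as the row of the normalized count table that carries its symbol, and all 10 were found among the 35268 named genes. All 10 also averaged at least 10 normalized counts over the 6 libraries, as did the 13930 genes that were tested.

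RNA sequencing was performed in Rh30, an established cell line from a fusion-positive rhabdomyosarcoma (FP-RMS), a childhood muscle-lineage tumor driven in this line by the PAX3-FOXO1 fusion. The 3 libraries of the treated group came from Rh30 cells given 1 µM YK-4-279, a compound made to block EWS-FLI1 and active against other ETS family transcription factors, in DMSO for 24 hours. The 3 libraries of the control group came from Rh30 cells given DMSO alone for the same time. The comparison asks how the compound changes gene expression in FP-RMS cells, and it holds 1 cell line, 1 dose and 1 time. The sources used here call the samples triplicates without saying that they were separate cultures, so the p-values measure the spread between these samples, which may be technical.

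Replication-dependent histone mRNAs are made in step with DNA synthesis and end in a conserved stem-loop in place of a poly(A) tail. NPAT and CASP8AP2 (also called FLASH) act in the histone locus body, where histone genes are transcribed and their pre-mRNAs are cut. SLBP binds the stem-loop, the U7 small nuclear ribonucleoprotein (snRNP), whose ring holds LSM10 and LSM11, base-pairs downstream of it with help from ZNF473 (ZFP100), and the endonuclease CPSF3 on its scaffold SYMPK makes the cut. After replication ends or is blocked, UPF1 and the 3′ exonuclease ERI1 act in the rapid decay of the mature mRNA.

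The element that SLBP and ERI1 bind is shown for 4 histone genes that were higher in YK-4-279 treated cells because it is what the processing factors act upon. All 68 listed replication-dependent histone genes carried a 16-base stem-loop of this form in their canonical GENCODE transcript, in 10 versions, and the version of H2BC21 and H2AC6 was the most frequent, in 40 of 68 genes, while that of H2BC5 and H2BC12 was found in 8. The sequences are from hg38, with the stem-loop in capitals: H2BC12 at chr6:27146361-27146386 (minus strand), H2BC5 at chr6:26158582-26158607 (plus strand), H2BC21 at chr1:149886183-149886208 (minus strand) and H2AC6 at chr6:26124664-26124689 (plus strand). The canonical transcripts of H2BC12, H2BC5 and H2AC6 end 5, 5 and 6 bases after it, and that of H2BC21 runs on for 1729 bases. The annotated genes of H2BC5 and H2AC6 also run past it, to chr6:26171349 and chr6:26139116, so longer transcripts are annotated for them too.
H2BC12: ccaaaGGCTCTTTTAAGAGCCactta
H2BC5: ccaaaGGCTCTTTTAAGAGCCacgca
H2BC21: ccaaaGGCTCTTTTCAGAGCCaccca
H2AC6: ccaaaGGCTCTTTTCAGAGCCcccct

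The RNA that LSM10 and LSM11 assemble on is U7, transcribed from RNU7-1 at chr12:6943816-6943878 (hg38, plus strand). Its 63 bases are given with the start of the site that the Sm/LSM ring binds in capitals. U7 has no poly(A) tail, and RNU7-1 had 0 reads in each of these poly(A)-selected libraries, so its level was not measured.
RNU7-1: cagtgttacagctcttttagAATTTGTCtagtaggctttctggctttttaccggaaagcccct

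DMSO replicate 1 was the library least like the rest. Its log2 values had a mean correlation of 0.989 with those of the other libraries across genes, and the remaining 5 libraries had at least 0.992. It was also the library with the fewest reads, 16724650 on named genes, in a range up to 24677433. DMSO replicate 1 held the highest of the 6 values for 8 of the 10 factors and the lowest for the other 2, so the values of the factors and of the other called genes are also given without that library. The 7 muscle and fusion-partner markers, which do not set Rh30 apart from other FP-RMS lines, summed to 68103 to 80843 normalized counts in DMSO. In YK-4-279 treated cells they summed to 75391 to 79230. None was called, and MYOD1 was the highest, with a mean of 36993. The 6 endothelial markers had means of 7.40 to 204 (TEK) and summed to 282 to 388 normalized counts in DMSO and 272 to 305 in YK-4-279 treated cells. None of the 6 was at 0 in every library.

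No processing factor passed the test. In limma on log2(normalized count + 1), 0 of the 10 factors had an adjusted p-value under 0.05, against 3.41% of all genes tested. None passed in edgeR or DESeq2 on the recovered reads either. Before adjustment, 6 of the 10 factors had a limma p-value under 0.05, namely SLBP, NPAT, LSM11, CASP8AP2, CPSF3 and ERI1, where 18.7% of all genes did. That count was 2 without YK-4-279 replicate 3 and 4 without any 1 of YK-4-279 replicates 1 and 2 and DMSO replicate 3. In YK-4-279 treated cells 8 factors had a lower mean and 2, UPF1 and SYMPK, a higher one, with a median log2 fold change of -0.18, or -0.11 without DMSO replicate 1. Over all genes tested 52.0% were lower and the median was -0.01, a value that turned to 0.01 after TMM scaling. In 7 of the 10 factors every YK-4-279 library lay below every DMSO library, which held for 15.1% of all genes. Adjusted p-values of the factors ranged from 0.109 to 0.932 in limma, and the standard errors of the log2 fold changes from 0.06 to 0.09. Across all genes 84 of the 475 that were called had a change no larger than that of NPAT, and the smallest change called was 0.22 on the log2 scale. Each factor was measured by 386 to 7241 reads in a library.

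**Figure D1:**
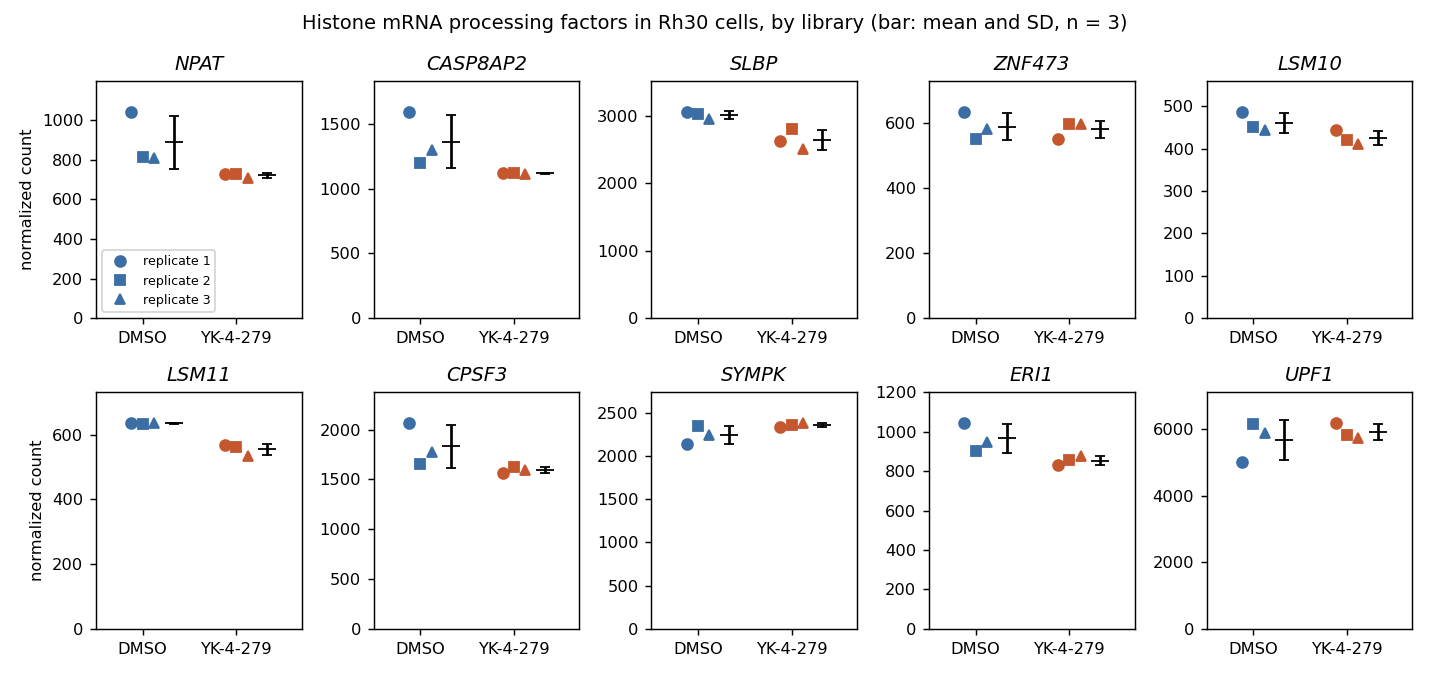
Normalized counts of the 10 histone mRNA processing factors (vertical axes, from 0) in the 3 DMSO and the 3 YK-4-279 libraries, with replicates by symbol and, beside each group, its mean and SD (n = 3). The YK-4-279 points lie below all DMSO points for NPAT, CASP8AP2, SLBP, LSM10, LSM11, CPSF3 and ERI1, and the circle of DMSO replicate 1 is the highest point in 8 panels and the lowest for UPF1 and SYMPK.

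NPAT, the cyclin E/CDK2 substrate that activates histone gene transcription, showed the largest difference of the 10 with all libraries, exceeded by LSM11 and SLBP without DMSO replicate 1 and by CASP8AP2 without DMSO replicate 2. Its 18-exon canonical transcript lies on the minus strand of chr11:108157215-108222638 (hg38). The DMSO libraries held 1041, 813 and 809 normalized counts in replicates 1, 2 and 3, and the YK-4-279 libraries held 729, 726 and 707. All 3 treated libraries were below the controls, and DMSO replicate 1 was far above the other controls. The difference was -0.29 on the log2 scale (standard error 0.09, 95% interval -0.49 to -0.09, limma adjusted p = 0.112). Without DMSO replicate 1 it was -0.17 (limma adjusted p = 0.0612).

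CASP8AP2 encodes FLASH, which binds LSM11 and brings the cleavage complex to the histone pre-mRNA. The gene is at chr6:89829894-89874436 on the plus strand, with 9 exons. The DMSO libraries held 1591, 1201 and 1295 normalized counts, and the YK-4-279 libraries were close together at 1123, 1118 and 1114. The groups did not overlap, and DMSO replicate 1 was again the highest. CASP8AP2 differed by -0.27 on the log2 scale (standard error 0.09, interval -0.47 to -0.08, limma adjusted p = 0.117). It was called without DMSO replicate 1, at -0.16 with a limma adjusted p of 0.0437, and without DMSO replicate 2, at -0.36 with a limma adjusted p of 0.0287. Leaving out DMSO replicate 1 made the difference smaller and its standard error 0.05 in place of 0.09.

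SLBP, the stem-loop binding protein itself, is made from the minus strand of chr4:1692731-1712344 in 8 exons. DMSO replicates 1, 2 and 3 held 3061, 3035 and 2957 normalized counts, and YK-4-279 replicates 1, 2 and 3 held 2637, 2807 and 2506. Here DMSO replicate 1 was close to the other controls, and every treated library was lower than every control. The mean was 3018 ± 54.5 normalized counts in DMSO and 2650 ± 151 in treated cells (SD, n = 3 each), which is -0.19 on the log2 scale (standard error 0.06, interval -0.32 to -0.06, limma adjusted p = 0.109). Without DMSO replicate 1 the fold change was nearly the same, -0.18, but its standard error was 0.05 and SLBP was called (limma adjusted p = 0.0045). In that comparison of 5 libraries 2 of the 10 factors, SLBP and CASP8AP2, were called, both lower. Over all genes 13.1% were called in either direction, and 1179 of 13930 were called lower.

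ZNF473, the zinc finger protein that links the U7 snRNP to the SLBP-bound stem-loop, showed no such separation. It lies at chr19:50025714-50053414 on the plus strand, and 5.28% of the bases of its canonical transcript are covered by exons of a gene on the opposite strand. DMSO libraries held 635, 554 and 582 normalized counts, and YK-4-279 libraries 551, 598 and 597. The groups overlapped, with the highest and the second highest of the 6 in different groups. Its log2 fold change was -0.02 (interval -0.20 to 0.16, limma adjusted p = 0.932) and turned to 0.04 without DMSO replicate 1, so ZNF473 has no stable direction here.

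The LSM proteins that set the U7 ring apart from the rings of the spliceosome were both lower in the treated libraries, LSM11 by more than LSM10. LSM11 is at chr5:157743712-157760709 on the plus strand. Its DMSO values were within 1 percent of each other, at 637, 633 and 635 normalized counts, and the YK-4-279 values were 568, 561 and 533. The groups were well apart, and DMSO replicate 1 was no exception. LSM11 differed by -0.20 on the log2 scale (standard error 0.07, interval -0.36 to -0.04, limma adjusted p = 0.174), and of -0.19 without DMSO replicate 1 (limma adjusted p = 0.0564).

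LSM10, at chr1:36391238-36397908 on the minus strand, has the shortest canonical transcript of the 10, with 860 bases. Its DMSO libraries held 487, 452 and 444 normalized counts, and its YK-4-279 libraries 443, 421 and 411. The lowest control and the highest treated library were about 1 normalized count apart, so the groups only just failed to overlap. The log2 fold change of LSM10 was -0.12 (standard error 0.08, interval -0.30 to 0.06, limma adjusted p = 0.481), and -0.08 without DMSO replicate 1 (limma adjusted p = 0.601). The difference between LSM10 and LSM11 in response was not tested.

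CPSF3, the endonuclease that cuts both histone and polyadenylated pre-mRNAs, is at chr2:9423651-9473101 on the plus strand. The DMSO libraries held 2070, 1656 and 1774 normalized counts, and the YK-4-279 libraries 1568, 1623 and 1591. All treated values were below the controls, but the nearest control, DMSO replicate 2, was only slightly above them. CPSF3 differed by -0.20 on the log2 scale (standard error 0.08, interval -0.36 to -0.03, limma adjusted p = 0.203), and by -0.10 without DMSO replicate 1 (limma adjusted p = 0.165).

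SYMPK, the symplekin scaffold that holds CPSF3 in the cleavage complex, is at chr19:45815410-45863194 on the minus strand. Its DMSO libraries held 2142, 2346 and 2245 normalized counts, and its YK-4-279 libraries 2335, 2358 and 2385. The treated values were high but overlapped DMSO replicate 2. SYMPK differed by 0.07 on the log2 scale (standard error 0.06, interval -0.06 to 0.20, limma adjusted p = 0.548). Without DMSO replicate 1 it was 0.04, and with the dependence on GC content and length taken out it was 9.0e-04.

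ERI1, the 3′ exonuclease that binds the stem-loop together with SLBP and trims the end of histone mRNA, had DMSO values of 1047, 904 and 949 normalized counts and YK-4-279 values of 830, 855 and 876. The treated libraries were all below the controls. The log2 fold change of ERI1 was -0.18 (standard error 0.07, interval -0.34 to -0.02, limma adjusted p = 0.227), and -0.12 without DMSO replicate 1 (limma adjusted p = 0.203).

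UPF1, the RNA helicase of nonsense-mediated decay that SLBP recruits to histone mRNA when replication stops, is at chr19:18831959-18868230 on the plus strand and had the most reads of the 10. DMSO libraries held 5008, 6159 and 5904 normalized counts, and YK-4-279 libraries 6205, 5843 and 5729. The groups overlapped, and the lowest value by far was that of DMSO replicate 1. UPF1 differed by 0.06 on the log2 scale (standard error 0.07, interval -0.10 to 0.22, limma adjusted p = 0.683), which turned to -0.03 without DMSO replicate 1 and to -0.04 once the dependence on GC content and length was taken out. The sign for UPF1 therefore rested on that library and on that correction.

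**Figure D2:**
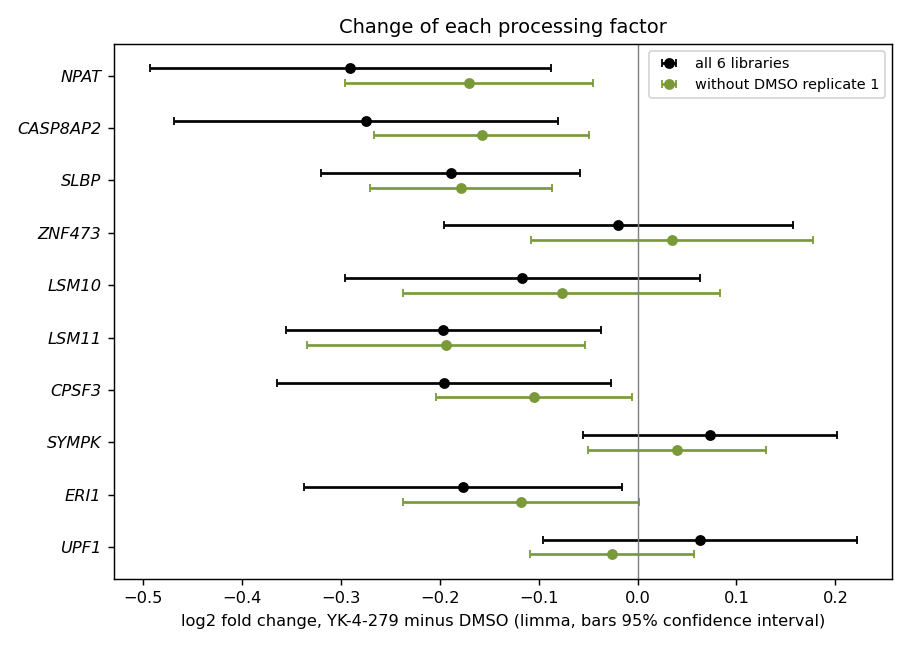
Log2 fold change (YK-4-279 minus DMSO, horizontal axis) of the 10 factors in limma with its 95% confidence interval, for all 6 libraries (black) and without DMSO replicate 1 (green). The green points lie nearer to 0 for NPAT, CASP8AP2 and CPSF3 with shorter intervals, SLBP and LSM11 hardly move, and UPF1 and ZNF473 change side.

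The factors also differed in base composition, a property that the choice of members did not use. The 6 factors with an unadjusted limma p-value under 0.05 had a GC content of 38.3% (CASP8AP2) to 48.3% (SLBP), the median over a gene's GENCODE transcripts. The other 4, ZNF473, LSM10, SYMPK and UPF1, had 54.3%, 58.3%, 59.0% and 60.1%. The deviation of DMSO replicate 1 from the mean of the other DMSO libraries was 0.36 for NPAT and 0.35 for CASP8AP2, the factors of the lowest GC content, and -0.27 for UPF1, the highest, on the log2 scale. Among the others of low GC content CPSF3 and ERI1 deviated by 0.27 and 0.18, and SLBP and LSM11 by 0.03 and 0.01. Among those of high GC content SYMPK deviated by -0.10, but ZNF473 and LSM10 by 0.16 and 0.12. With the dependence of each library on GC content and length taken out by a smooth fit, 4 of the 10 factors were called by limma, all lower. In that fit 13.4% of all genes were called in either direction, and 1400 of the 13930 genes were called lower. The 4 factors were SLBP at -0.20 (limma adjusted p = 0.0071), NPAT at -0.23 (limma adjusted p = 0.022), LSM11 at -0.21 (limma adjusted p = 0.0386) and CASP8AP2 at -0.21 (limma adjusted p = 0.019). The part of base composition in these differences was not tested further. Without DMSO replicate 1, the treated libraries lay below both remaining controls in 7 of the 10 factors, and in 22.9% of all genes.

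In levels per length the factors covered a wide range. Dividing each normalized count by the length of the canonical transcript put SLBP first in DMSO, at 1667 ± 30.1 normalized counts per kilobase (SD, n = 3). UPF1 followed at 1069 ± 114, CPSF3 at 812 ± 94.5, SYMPK at 551 ± 25.02 and LSM10 at 536 ± 26.4 normalized counts per kilobase. CASP8AP2 at 224 ± 33.4, ERI1 at 214 ± 16.1, NPAT at 145 ± 21.8, ZNF473 at 127 ± 8.96 and LSM11 at 96.6 ± 0.322 came lower in the order. The DMSO libraries of 3 neighbouring pairs overlapped, SYMPK with LSM10, CASP8AP2 with ERI1 and NPAT with ZNF473, and those of the other 6 pairs did not. LSM10 was thus several times more abundant per length than its partner LSM11. In YK-4-279 treated cells SLBP remained first at 1464 ± 83.3 normalized counts per kilobase and LSM11 last at 84.4 ± 2.80. Only the overlapping pairs CASP8AP2 with ERI1 and NPAT with ZNF473 traded places. The isoforms that Rh30 cells use were not measured, and a shorter or longer transcript would move these levels.

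**Figure D3:**
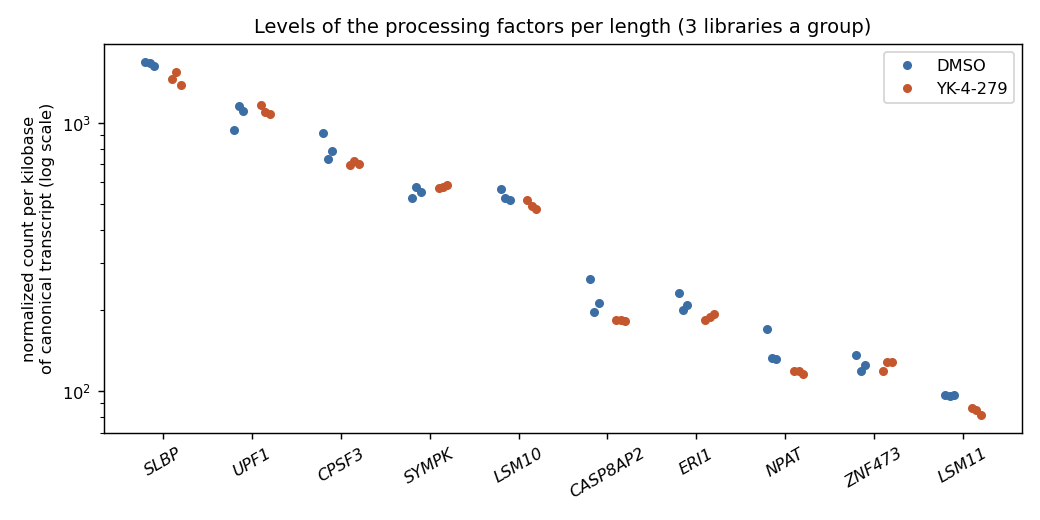
Level of each factor per kilobase of its canonical transcript (vertical axis, log scale) in the 3 DMSO (blue) and 3 YK-4-279 (orange) libraries, ordered by the DMSO mean. SLBP is highest, at 1667 normalized counts per kilobase in DMSO, and LSM11 lowest, at 96.6, with the same first 5 genes in both groups.

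The pathway around the factors was described by lists of other genes. Of the 8 genes of histone gene transcription and the locus body, 3 were called lower and none higher, where 2.15% of all genes were called lower. The median log2 fold change of the 8 was -0.13, and 3 of them were above 0. The 3 called genes were the kinase that phosphorylates NPAT and both its cyclins. CCNE2, a cyclin E, had 367 ± 27.8 normalized counts in DMSO and 254 ± 3.71 in treated cells (SD, n = 3 each), a difference of -0.53 on the log2 scale (standard error 0.09, limma adjusted p = 0.0106). CDK2 differed by -0.38 (limma adjusted p = 0.0117) and CCNE1, the other cyclin E, by -0.33 (limma adjusted p = 0.0196). In all 3 every treated library was below every control, as it was in COIL, which was not called, and in 15.1% of all genes. HINFP and CRAMP1 lay the other way, at 0.18 and 0.16 on the log2 scale, and neither was called. In both every treated library was above every control, as in 1523 of the 13930 genes tested. YY1, a zinc finger transcription factor and the gene of the list with the highest mean, differed by -0.08 on the log2 scale (limma adjusted p = 0.486). Without DMSO replicate 1 CCNE2, CDK2 and CCNE1 were called at -0.48, -0.34 and -0.35, and the list's median was -0.11. With any 1 of the YK-4-279 libraries left out none of the 8 was called, and without DMSO replicate 3, 2 were. Over all 13930 genes 13.1% were called without DMSO replicate 1 and 242 genes without DMSO replicate 3. Leaving out YK-4-279 replicates 1, 2 and 3 in turn, 19, 23 and 46 of all genes were called. CCNE1 also lost its call with quantile normalization and with the replicate block, and all 3 did with eBayes without trend.

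Among the 8 partners of SLBP and genes of its turnover, 3 were called lower and none higher, against the same 2.15% called lower over all genes. CTIF, MIF4GD and DCAF11 were higher, at 0.18, 0.12 and 0.11 on the log2 scale, without being called. The unadjusted limma p of CTIF was 0.0263. CDK1, the kinase that marks SLBP for destruction as S phase ends, had 3227 ± 253 normalized counts in DMSO and 2352 ± 197 in treated cells (SD, n = 3 each), a difference of -0.46 on the log2 scale (limma adjusted p = 0.00741). CCNA2, cyclin A2, its partner in that step and the gene of the list with the highest mean, differed by -0.34 (limma adjusted p = 0.0122). CCNF, the F-box protein that targets SLBP in G2, differed by -0.32 (limma adjusted p = 0.0129). The 3 genes called lower thus act in the removal of SLBP. The list's median was -0.06, which single libraries moved, to -0.14 without DMSO replicate 1 and to 0.003 without DMSO replicate 3. It was -0.12 with the dependence on GC content and length taken out. CDK1, CCNA2 and CCNF differed by -0.40, -0.28 and -0.31 without DMSO replicate 1. Without YK-4-279 replicates 1, 2 and 3 in turn, 0, 0 and 1 of the 8 were called, and without DMSO replicate 1, 4 were. Over all 13930 genes 19, 23 and 46 were called without these YK-4-279 replicates in turn, and 13.1% without DMSO replicate 1. CCNF also lost its call with the replicate block, and all 3 did with eBayes without trend. In bulk RNA a smaller share of cells in the phase that makes a transcript and less of it per cell cannot be told apart.

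The general machinery of mRNA ends held few called genes. None of the 19 tested cleavage and cap-binding factors was called by limma, edgeR or DESeq2, with 1 at an unadjusted limma p under 0.05 and a median of -0.04, which was 0.01 after quantile normalization and -0.02 without DMSO replicate 2 or 3. At an unadjusted p under 0.05 there were 2 without DMSO replicate 1, 3 without DMSO replicate 2 and 0 without any 1 of the YK-4-279 libraries. SRRT (ARS2), the most abundant of the list and a partner of the cap-binding complex, differed by 0.01 on the log2 scale (limma adjusted p = 0.939), and by -0.07 without DMSO replicate 1. In that comparison 1 of the 19 was called, against 13.1% of all genes. Of the 5 Sm proteins that the U7 ring shares with the spliceosomal rings, SNRPD3 fell, by 0.27 on the log2 scale (limma adjusted p = 0.0373), and SNRPB, the highest, had -0.07 (limma adjusted p = 0.653). The 1 call among 5 stands beside 2.15% called lower over all genes, and it was lost with quantile normalization, with eBayes without trend and with the replicate block. When DMSO replicate 1 was left out, 3 of the 5 were called, all lower, with SNRPD3 at -0.23 and SNRPB at -0.15. In that fit 13.1% of all genes were called, and 1179 of 13930 were called lower. The median of the 5 was then -0.14 in place of -0.07. Without DMSO replicate 2, 1 of the 5 and 676 of all genes were called. None of the 5 was called without any other single library.

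Of 25 mRNA decay factors, 1 was called lower and none higher, a share close to the 2.15% called lower over all genes. EXOSC9, a core subunit of the RNA exosome, had a log2 fold change of -0.29 (limma adjusted p = 0.0394), and of -0.22 without DMSO replicate 1. This call was lost after TMM scaling and quantile normalization, with eBayes without trend and with the replicate block. XRN1, the 5′ exonuclease and the highest of the list, was at 7363 ± 738 and 7335 ± 84.7 normalized counts in DMSO and treated cells (SD, n = 3 each). The median of the list was -0.01, with 16 of the 25 lower, and 0.004 with 12 lower after TMM scaling. The median was -0.08 without DMSO replicate 1. Without DMSO replicate 1 or 2, 4 of the 25 were called, 3 lower and 1 higher, and without any other single library none. Over all genes 13.1% were called without DMSO replicate 1 and 676 of 13930 without DMSO replicate 2. With the dependence on GC content and length taken out, 7 of the 25 were called, 6 lower and 1 higher. In that fit 13.4% of all genes were called, and 1400 of 13930 were called lower.

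Among the replication-dependent histone genes the calls were in the other direction. Only 19 of the 63 replication-dependent histone genes in the table had a mean of at least 10, and 14 had no read in any library. The mature mRNAs of these genes lack the tail by which poly(A) libraries are selected, and reads from tailed and from stem-loop transcripts cannot be told apart here. All listed histone genes together had 761 to 1722 reads in a library. Of the 19, 4 were called higher and none lower, where 1.26% of all genes were called higher. A log2 fold change above 0 was seen in 18 of the 19 (15 after quantile normalization, 14 without DMSO replicate 3), and H2AC20 was at -0.42. Over all genes tested 6684 of 13930 were above 0. The filter took the mean over both groups, so a gene low in treated cells could miss it. H2AC8 missed it with a mean of 9.05. It had 12.9 ± 2.03 normalized counts in DMSO and 5.22 ± 1.26 in treated cells (SD, n = 3 each), with every treated library below every control. The median of the 19 was 0.65, and with no filter it was 0.25 over 49 genes, 14 of them lower. H2BC5 had 64.4 ± 9.88 normalized counts in DMSO and 185 ± 31.6 in treated cells (SD, n = 3 each), a difference of 1.51 on the log2 scale (standard error 0.16, limma adjusted p = 6.3e-04). H2BC12, the highest of the list over both groups together although H1-2 was above it in DMSO, differed by 0.85 (limma adjusted p = 0.00329), H2BC21 by 0.88 (limma adjusted p = 0.0232) and H2AC6 by 0.80 (limma adjusted p = 0.0114). These are the 4 genes whose stem-loops are printed, and they carry 2 of its 10 versions. Histone genes have near-identical copies, so their values are uncertain where reads were shared. Without YK-4-279 replicates 1, 2 and 3 in turn, 1, 2 and 2 of the 19 were called, against 19, 23 and 46 of all 13930 genes. H2BC21 lost its call with quantile normalization, with eBayes without trend and without DMSO replicate 3, and H2AC6 with eBayes without trend. When DMSO replicate 1 was left out, 8 of the 19 were called, all higher, where 644 of 13930 genes were called higher. In that fit the median of the 19 was 0.64, and H2BC5, H2BC12, H2BC21 and H2AC6 differed by 1.39, 0.84, 1.06 and 0.72.

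**Figure D4:**
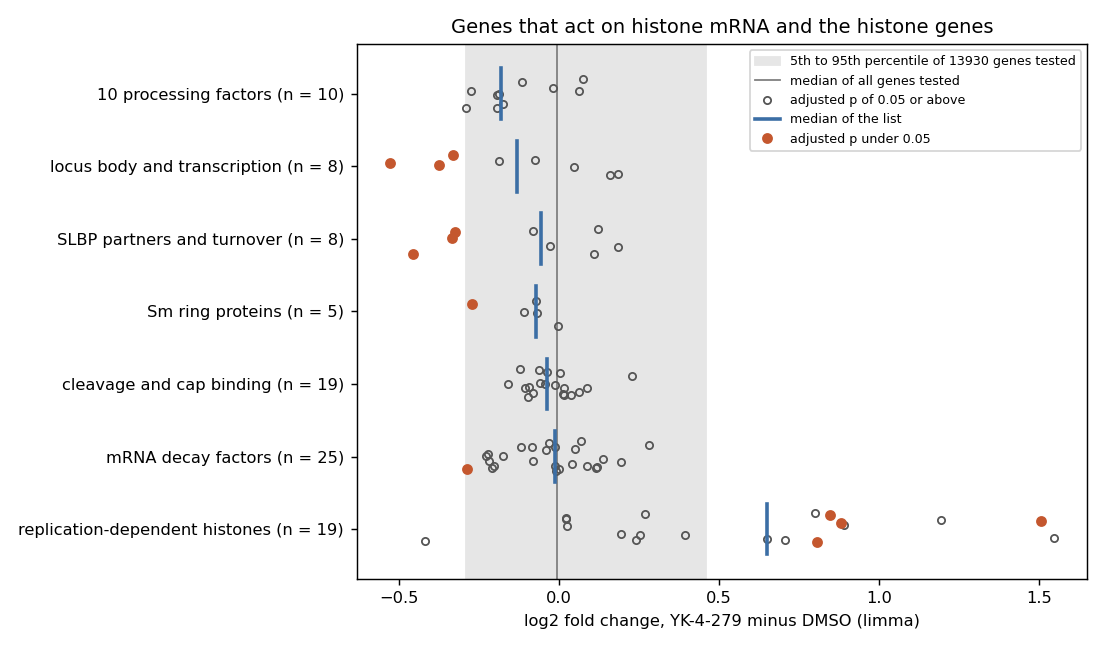
Log2 fold change (YK-4-279 minus DMSO, limma, horizontal axis) of each tested gene of the 10 processing factors and of 6 lists around them, with filled points for an adjusted p under 0.05, a blue bar at each list's median, and the 5 to 95 percentile range and median of all 13930 genes in grey. The processing factors have a median of -0.18 with none called, and 3 genes are called lower in each of the lists of the locus body and of SLBP turnover. Of the 19 tested histone genes 18 are above 0 (15 after quantile normalization, 14 without DMSO replicate 3). H2AC8, lower in every treated library, was under the filter and is not shown.

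Promoter windows from RefSeq (GRCh38.p14, from 250 bases before to 50 after the start of transcription) were matched for 8 of the 10 factors, SLBP, NPAT, LSM10, LSM11, CASP8AP2, UPF1, CPSF3 and SYMPK. As YK-4-279 acts on ETS factors and histone processing is tied to S phase, 3 motifs were searched on both strands. They were the ETS word CCGGAA, the E2F sites TTTCCCGC, TTTCGCGC, TTTGCCGC and TTTGGCGC, and the CCAAT box CCAAT. The ETS word is 1 literal form, and other words with GGAA, such as ACGGAAGT in the NPAT window, were not counted. The ETS word was found in 2 of the 8 windows, CPSF3 with a first base at -46 and SYMPK at -145 from the start site, and in 17.2% of 35114 RefSeq promoters. Neither of these was called, and the difference between them was not tested. An E2F site was found in CASP8AP2 at -149 and CPSF3 at -218, and in 3.31% of all promoters. A CCAAT box was found in 4 of the 8, with 2 each in NPAT and CASP8AP2 and 1 each in LSM10 and UPF1, and in 34.6% of all promoters. No such matches overlapped in the windows shown, and the words are a description and not binding sites.

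The windows of NPAT (chr11:108222589-108222888, minus strand), CASP8AP2 (chr6:89829630-89829929, plus strand), CPSF3 (chr2:9423404-9423703, plus strand) and SYMPK (chr19:45863098-45863397, minus strand) are shown as the factors of the largest difference over all 6 libraries and those with the ETS word. Each reads 5′ to 3′ on the strand of its gene, with the matches in capitals (a CCAAT box on the opposite strand reads ATTGG).
NPAT: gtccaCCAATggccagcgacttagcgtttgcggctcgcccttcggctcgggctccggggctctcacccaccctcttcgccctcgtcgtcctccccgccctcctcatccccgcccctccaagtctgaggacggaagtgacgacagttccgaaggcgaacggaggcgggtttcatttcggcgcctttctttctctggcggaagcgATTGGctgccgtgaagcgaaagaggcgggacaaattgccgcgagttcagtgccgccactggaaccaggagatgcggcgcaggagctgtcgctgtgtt
CASP8AP2: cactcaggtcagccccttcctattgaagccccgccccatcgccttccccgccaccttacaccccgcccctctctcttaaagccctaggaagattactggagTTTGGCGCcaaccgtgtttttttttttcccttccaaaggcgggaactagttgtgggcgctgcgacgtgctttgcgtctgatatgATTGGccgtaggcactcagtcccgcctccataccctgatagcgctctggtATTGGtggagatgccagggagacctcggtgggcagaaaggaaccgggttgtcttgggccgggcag
CPSF3: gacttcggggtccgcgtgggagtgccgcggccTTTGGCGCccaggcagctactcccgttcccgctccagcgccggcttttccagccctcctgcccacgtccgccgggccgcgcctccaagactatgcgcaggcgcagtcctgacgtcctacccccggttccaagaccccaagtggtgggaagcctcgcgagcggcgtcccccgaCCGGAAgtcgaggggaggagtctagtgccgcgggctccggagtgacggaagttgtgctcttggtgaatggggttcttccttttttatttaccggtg
SYMPK: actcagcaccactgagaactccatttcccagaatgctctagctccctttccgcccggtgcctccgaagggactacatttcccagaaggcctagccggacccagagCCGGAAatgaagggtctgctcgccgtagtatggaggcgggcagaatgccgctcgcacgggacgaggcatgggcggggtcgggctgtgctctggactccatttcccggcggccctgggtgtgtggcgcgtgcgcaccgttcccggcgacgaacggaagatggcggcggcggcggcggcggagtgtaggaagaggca

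NPAT is transcribed away from its neighbour ATM, the DNA damage kinase, which was looked at after its values were seen. ATM had 1396, 1281 and 1220 normalized counts in the DMSO libraries and 1260, 1230 and 1262 in the YK-4-279 libraries. DMSO replicate 1 was the highest, and the 3 treated values lay between those of DMSO replicates 2 and 3. The groups of ATM overlapped, unlike those of NPAT, and its log2 fold change was -0.05 (interval -0.20 to 0.10, limma adjusted p = 0.727). The difference between the 2 genes was not tested.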

How the data were processed

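Poly(A) RNA was sequenced as paired reads from 3 YK-4-279 and 3 DMSO samples of Rh30 cells. The authors trimmed reads with BBDuk, aligned and counted them per gene with STAR 2.7.9a on hg38, and used DESeq2 1.44.0. The annotation is not given in the sources used here. The deposited values are a normalized signal, reads multiplied by a factor of each library, and 100% of them were whole multiples of the library's smallest value within 0.001. Libraries held 16724650 to 24677433 reads, and 1 unnamed row with at most 6 reads was dropped.

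Differences were tested with limma 3.58.1 (R 4.3.3; lmFit, eBayes with trend) on log2(normalized count + 1), which understates changes of low genes, over 13930 genes, two-sided, with Benjamini-Hochberg adjustment at 0.05. Alternatives were edgeR 4.0.16 and DESeq2 1.42.0 on recovered reads, other pseudocounts, filters and scalings, a replicate block, removal of GC and length trends (mgcv 1.9.3) and leaving out each library. The code was tested on simulated data. The factors and lists were chosen with earlier results of these data known. All 10 factors are named, and in each list the gene with the highest mean and up to 3 called genes with the largest change, with H2AC6 and ATM added after their values were seen. Positions, lengths and stem-loops are from GENCODE, promoters from RefSeq.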

Additional observations from a re-analysis of the deposited data

How the results depend on the processing

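Over the 16 alternatives, 7 of the 10 factors (SLBP, NPAT, LSM10, LSM11, CASP8AP2, ERI1 and CPSF3) were lower in every one and SYMPK was above 0 in every one, though at 9.0e-04 with the GC and length trend removed. The number of factors called was 0 under all settings except with the GC and length trend removed (4) and with libraries left out in turn (0 to 2). UPF1 turned to -0.036 with that trend removed and, with libraries left out, ranged from -0.026 to 0.12. ZNF473 ranged from -0.064 to 0.035 with libraries left out. The number of genes called over all genes was 475, and it was 277 after quantile normalization, 33 when eBayes had no trend, 1862 with the GC and length trend removed and 19 to 1823 with libraries left out. Medians that turned sign were those of the decay factors (0.0037 with TMM scaling, 0.029 with quantile normalization), of the cleavage factors (0.0099 with quantile normalization) and of the SLBP partners (-0.14 to 0.0032 with libraries left out), and of all genes tested (0.018 with no filter, 0.011 with TMM scaling, 0.0086 in edgeR and 0.0048 in DESeq2). When eBayes had no trend, every listed gene called outside the histone genes was lost, and 2 histone genes were called. With the replicate number as a replicate block 180 genes and none of the factors were called. Same-numbered libraries had correlations of -0.098, -0.027 and -0.027, so the numbers do not pair the samples. The cause of these changes was not tested. The 3 libraries a group limit the precision, and reads per factor (386 or more) do not reach 0 in any library.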
